A study of Homo sapiens with 50 samples.

Results

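Bystander cells are cells that were not themselves hit by radiation but shared a dish with cells that were. The 10 arrays described here hold H1299shRAD9 cells of the bystander negative group (BN), whose micronucleus frequency stayed at the level of unirradiated cells, and their matched H1299shRAD9 controls (CTL). They were taken from 50 arrays by the sample labels alone, 5 BN and 5 CTL, and each BN array was set against the CTL array of the same replicate number. H1299 is a human non small cell lung cancer line, and H1299shRAD9 cells are stable transfectants in which a short hairpin RNA depletes RAD9. The hairpin is carried by the controls too. More than one transfectant was used interchangeably, and which one gave a sample is not given in the sources used here.

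Cells grew in concentric dishes with a thin and a thick Mylar film, so that 4He ions (α particles) of 125 keV/μm reached the cells on the thin film at 1 Gy and stopped before those on the thick film. RNA was taken at 4 h from CTL dishes (0 Gy), from thick-film cells of dishes without a micronucleus response (BN), and from the irradiated cells of those dishes (direct bystander negative, DBN). Dishes with a micronucleus response gave bystander positive (BP) and direct bystander positive (DBP) cells. Parental H1299 cells went through the same 5 groups. Each array measured labelled RNA of a whole cell population, so that a lower level in fewer cells and a lower level in every cell cannot be told apart.

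Irradiated cells signal to their neighbours through gap junctions and through secreted factors such as cytokines, prostaglandins and reactive oxygen species. Neighbours that respond can show DNA damage, micronuclei, altered growth and changed transcription. RAD9A forms a ring-shaped clamp with RAD1 and HUS1 that is loaded at damaged DNA and activates the ATR checkpoint kinase. A quick transcriptional answer to stress runs through immediate early genes such as EGR1, FOS and ATF3, and a slower one through the ATF4-driven integrated stress response and the NRF2-driven antioxidant genes.

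RAD9A was measured by 1 feature (chr11:67165480-67165539, hg19, plus strand), a feature being 1 probe sequence on the array. Its level, the log2 intensity minus the median of the array, was 3.14 ± 0.18 (SD, n = 5) in H1299shRAD9 CTL and 3.45 ± 0.13 (SD, n = 5) in H1299 CTL, so that the hairpin line held 81.1% of the parental level (exact permutation test, 2-sided, p = 0.0159, smallest possible 0.00794). No slide held CTL arrays of both lines, so line and slide cannot be told apart in this comparison. The study reported a larger reduction of RAD9 protein by Western blot, which this mRNA value does not measure. In BN cells the RAD9A level was 3.17 ± 0.26, 0.03 from CTL (SE 0.10). RAD1 differed by 0.04 (SE 0.07). HUS1 and RAD9B were well above background on at most 2 of 5 arrays of either group.

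The label of the cells held on most markers: VIM, KRT8, KRT18, ZEB1 and CDH2 were well above background on all 10 arrays, whereas FN1 was on 1 and CDH1 on 0. The 11 markers of blood, endothelial and fibroblast cells summed to 815 to 1403 intensity units in CTL and 950 to 1439 in BN, and HBB, PECAM1, COL1A1, COL3A1 and PDGFRB were not well above background on any array, whereas PTPRC, CD14 and CDH5 were on all 10. Between 58.6% and 65.3% of probes were well above background in CTL and between 60.8% and 73.1% in BN, the 2 highest shares being those of BN replicates 3 and 4, which were on another slide than their controls (difference 4.16 percentage points, exact sign-flip test over pairs p = 0.312, smallest possible 0.0625).

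Of 12193 features that passed the filters, 6 were differentially expressed between BN and CTL in a paired fit of the 10 arrays (limma, with the unadjusted p below 0.006 and the false discovery rate below 10%), a share of 0.0492%. Of these, 5 were higher in BN (0.041% of the features) and 1 was lower (0.0082%). EGR1, the serum- and stress-induced zinc finger transcription factor, rose by 0.96 on the log2 scale. LURAP1L (C9orf150 on the array, leucine rich adaptor protein 1 like), GDPD1 (a glycerophosphodiesterase), and 1 feature each of MED1 (a subunit of the Mediator coactivator) and UBAP2L (an RNA-binding protein of stress granules) also rose. The transcript LOC100652917 fell by 1.08.

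The EGR1 promoter is shown because EGR1 was the transcription factor among the differentially expressed features. The 250 bases before its RefSeq start (chr5:138465229-138465478, plus strand, GRCh38.p14) hold 2 CArG boxes, the motif bound by serum response factor, beginning 105 and 83 bases before the start and printed in capitals. Of 35116 RefSeq promoters, 1.16% hold at least 1 CArG box on either strand in the same window, and those of FOS, LURAP1L, GDPD1, UBAP2L and MED1 hold none there. Bases further upstream were not searched, so boxes outside the window would be missed.
EGR1 promoter: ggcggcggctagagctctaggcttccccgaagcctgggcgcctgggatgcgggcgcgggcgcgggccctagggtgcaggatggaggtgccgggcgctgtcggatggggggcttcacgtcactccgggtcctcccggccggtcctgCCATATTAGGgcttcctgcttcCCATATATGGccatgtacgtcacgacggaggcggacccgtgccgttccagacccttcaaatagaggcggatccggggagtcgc

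The probes of UBAP2L and LOC100652917 are shown because the first gene gave different answers at different probes and the second was the one transcript that fell. UBAP2L lies on the plus strand of chromosome 1 and has 4 probes. Its most 5′ probe (chr1:154199802-154201116, hg19) covers 1315 genomic bases with 60 bases of sequence and so crosses an exon junction. The next probes downstream (chr1:154234113-154234172 and chr1:154234145-154235609) share 28 bases, printed in capitals.
UBAP2L, most 5′ probe: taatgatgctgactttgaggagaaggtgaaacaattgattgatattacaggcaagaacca
UBAP2L, middle probe with the shared bases last: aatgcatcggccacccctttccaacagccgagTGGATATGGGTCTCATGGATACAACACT
UBAP2L, middle probe with the shared bases first: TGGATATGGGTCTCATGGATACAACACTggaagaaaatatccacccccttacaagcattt
LOC100652917 probe (chr18:74696037-74696096, plus strand): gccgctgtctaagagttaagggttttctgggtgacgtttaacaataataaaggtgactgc

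EGR1 (chr5:137804891-137804950, hg19) had levels of 2.03, 1.87, 3.52, 3.43 and 3.35 in CTL replicates 1 to 5 and of 2.83, 3.0, 4.42, 4.39 and 4.38 in the BN replicates of the same numbers. Replicates 1 and 2 were the lowest of their group on both sides, so the groups overlapped, while each BN array stood above its own control by 0.80 to 1.13. The mean difference was 0.96 (SE 0.09, 1.95-fold, limma adjusted p = 0.0772).

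LURAP1L (chr9:12822833-12822892) had CTL levels of −2.16, −3.29, −4.20, −2.47 and −2.43 and BN levels of −0.85, −1.62, −2.49, −1.08 and −1.63. Every pair was higher in BN, by 1.38 on average (SE 0.15, adjusted p = 0.0772), and the feature was well above background on 2 of 5 CTL and 5 of 5 BN arrays. GDPD1 (chr17:57335133-57335192) stood at −2.12, −2.24, −2.30, −1.76 and −1.20 in CTL and at −1.29, −1.27, −1.62, −0.85 and −0.49 in BN. It rose by 0.82 (SE 0.09, adjusted p = 0.0772), with 1 of 5 CTL and 5 of 5 BN arrays well above background, and the highest CTL array lay above 3 of the BN arrays.

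The most 5′ UBAP2L feature had CTL levels of −0.91, −0.39, −0.52, −0.43 and 0.13 and BN levels of −0.07, 1.34, 0.50, 1.1 and 1.63. The groups overlapped only through BN replicate 1 and CTL replicate 5, and the mean difference was 1.32 (SE 0.15, 2.50-fold, adjusted p = 0.0772). The MED1 feature that rose (chr17:37571280-37571339, minus strand) had CTL levels of −2.36, −1.69, −1.55, −1.57 and −1.33 and BN levels of −1.37, −0.75, −0.79, −0.48 and −0.72. It was higher in all 5 pairs, by 0.88 (SE 0.10, adjusted p = 0.09).

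LOC100652917 had CTL levels of 0.40, 0.63, 0.09, −0.63 and −0.51 and BN levels of −0.64, −0.81, −1.12, −1.54 and −1.3. Each BN array lay below every CTL array, which was so for 0.353% of the features tested, and the mean difference was −1.08 (SE 0.12, adjusted p = 0.0772).

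**Figure D1:**
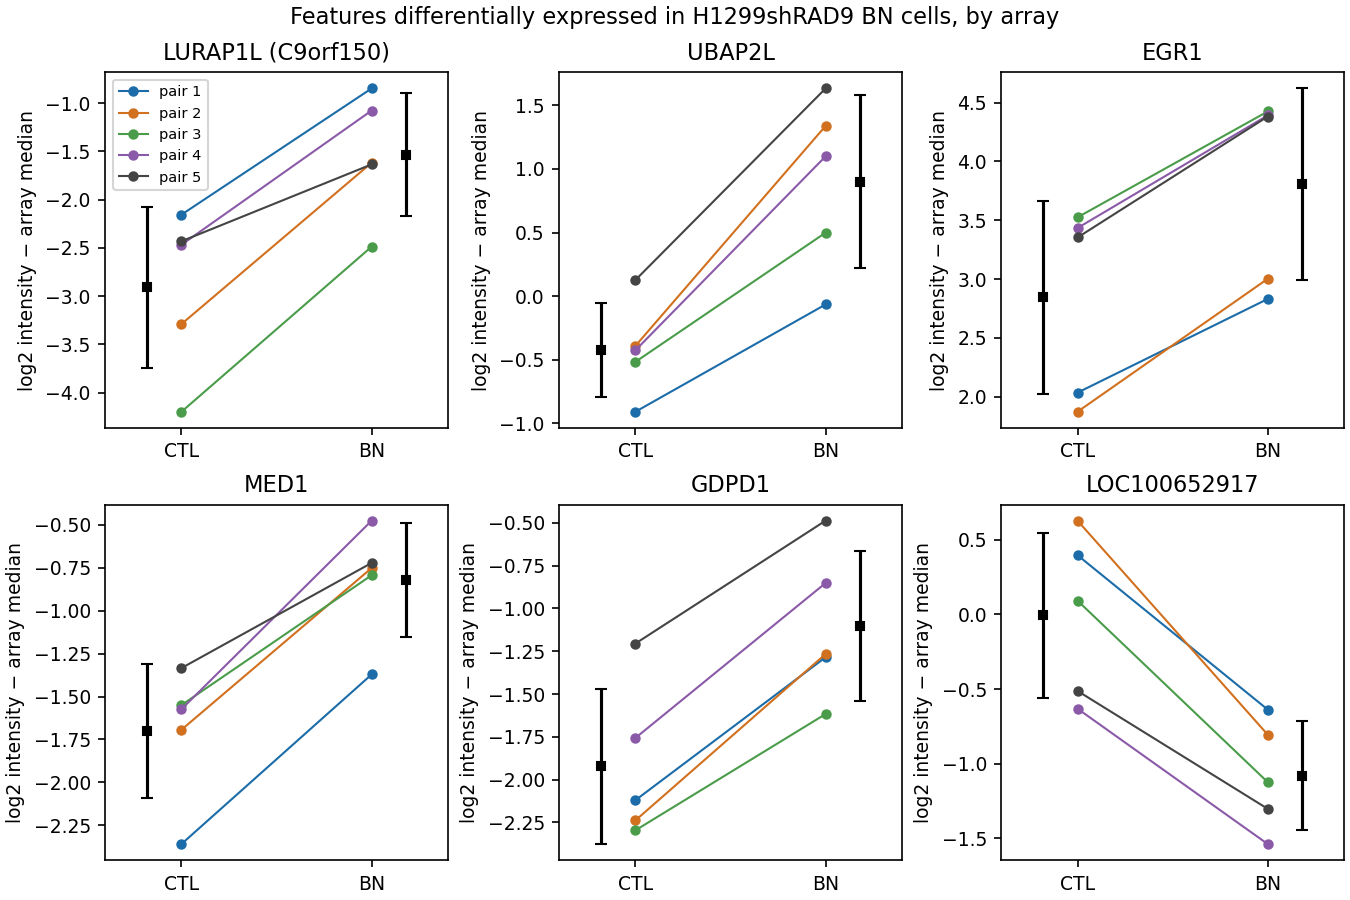
Levels of the 6 differentially expressed features (log2 intensity minus the array median) in H1299shRAD9 CTL and BN arrays, with a line for each matched pair and black squares for the group mean ± SD of 5 arrays. All 5 lines rise for LURAP1L, UBAP2L, EGR1, MED1 and GDPD1 and all 5 fall for LOC100652917.

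Pairs 1 and 5 lay within 1 slide each, whereas BN replicates 2, 3 and 4 were on other slides than their controls. Over pairs 1 and 5 alone the mean differences were 0.91 for EGR1, 1.05 for LURAP1L, 0.78 for GDPD1, 1.17 for UBAP2L, 0.80 for MED1 and −0.91 for LOC100652917. With the slide as a block no feature passed, with 2 residual degrees of freedom, and without any 1 of the 5 pairs no feature passed either. Without the replicate block the count was 0 as well.

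When all 5 H1299shRAD9 groups shared 1 estimate of the spread, 520 features (4.26%) were differentially expressed between BN and CTL, 439 higher (3.6%) and 81 lower (0.664%). The count hung on single replicates: leaving out replicate 2 brought it to 0, leaving out replicate 3 to 93 and leaving out replicate 4 to 5. It was 68 without the replicate block and 16 with the slide as a block.

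An unadjusted p under 0.006 was reached by 306 features higher in BN (2.51%) and 72 lower (0.591%). Among those that moved the same way in all 5 pairs, APOL6 had the largest positive difference (1.5, SE 0.31), ahead of LURAP1L and UBAP2L, which were followed by SMC1A (1.22, SE 0.23), CDCP1 (1.16, SE 0.20), STAG2 (1.14, SE 0.18), CXorf23 (1.12, SE 0.26), MBTD1 (1.11, SE 0.23), DDX10 (1.11, SE 0.22) and AKAP12 (1.09, SE 0.24). SMC1A and STAG2 are subunits of cohesin, CDCP1 is a transmembrane glycoprotein, DDX10 an RNA helicase and AKAP12 a scaffold for protein kinases. APOL6 and the 7 that followed UBAP2L did not pass the false discovery rate over the 10 arrays (adjusted p = 0.175 for each), and all but APOL6 (adjusted p = 0.152) passed in the fit of all groups. The CDCP1 feature stood at 1.51, 1.19, 0.71, 0.63 and 1.14 in CTL and at 2.0, 3.17, 1.96, 1.95 and 1.92 in BN. The STAG2 feature stood at 0.13, 0.15, −0.13, 0.18 and 0.82 in CTL and at 0.88, 1.64, 1.19, 1.82 and 1.33 in BN. For both, the groups did not overlap, as for 1.25% of features tested in this direction. At the feature nearest the 3′ end, the difference was 0.03 (SE 0.07) for CDCP1 and −0.04 (SE 0.09) for STAG2.

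Among the falls by the same rule, LOC100652917 was followed in size by WDR6 (−1.0, SE 0.23), KRTAP5-10 (−0.91, SE 0.23), the mitochondrially encoded CYTB (−0.85, SE 0.21), TXK (−0.78, SE 0.19), the minor spliceosome RNA RNU12 (−0.74, SE 0.15) and GLIS1 (−0.72, SE 0.18). Larger differences were seen for 2 features without a gene name, A_33_P3304097 (−1.87, SE 0.41) and A_33_P3298612 (−1.56, SE 0.38), and a similar one for ATF6B (−1.06, SE 0.22), a factor of the unfolded protein response. None of these passed in the 10-array fit (adjusted p from 0.175 to 0.193). A_33_P3304097, A_33_P3298612, CYTB and RNU12 passed in the fit of all groups. CYTB, the brightest of them, ran from 8.49 to 9.32 in CTL and from 7.58 to 8.62 in BN.

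The features that rose lay mostly towards the 5′ end of their genes. Among the 439 called higher in the fit of all groups, 309 belonged to genes with several ordered features above background, and 80.6% of these were the most 5′ one, against 48.1% of the 4471 such features among all tested. Only 7.77% were the feature nearest the 3′ end, against 42% of all tested. Of the 81 called lower, 25 belonged to such genes and 72% of those were nearest the 3′ end. When each gene was represented only by its feature nearest the 3′ end, 4 of 9597 features passed in the 10-array fit and 56 in the fit of all groups, 42 higher and 14 lower.

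Among genes chosen for a large difference at 1 feature, UBAP2L differed by 1.32 at its most 5′ feature, by −0.00 (SE 0.08) and 0.01 (SE 0.07) at the next, and by −0.19 (SE 0.08) at the last. MED1 differed by 0.88 at the 5′ feature and by −0.09 (SE 0.09) at the 3′ one. SMC1A differed by 1.22 and 1.21 at 2 features and by −0.09 (SE 0.09) at its 3′ feature, and STAG2 by 1.14, 0.47 and −0.04 in that order. At the feature nearest the 3′ end, CDCP1 differed by 0.03 (SE 0.07), CXorf23 by 0.12 (SE 0.08) and MBTD1 by 0.12 (SE 0.09). DDX10 differed there by 0.10 (SE 0.07) and AKAP12 by 0.19 (SE 0.10). The opposite was seen in WDR6, at −1.0 (SE 0.23) at the 5′ feature and −0.06 (SE 0.08) at the 3′ one, and in KRTAP5-10, at −0.91 (SE 0.23) and −0.14 (SE 0.09). EGR1, GDPD1, LURAP1L and LOC100652917 had no second ordered feature and give no such comparison.

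A 5′ minus 3′ index was computed as the median, over 3050 genes, of the level at the most 5′ feature minus that at the feature nearest the 3′ end. It was −1.68, −1.71, −1.70, −1.70 and −1.62 in CTL replicates 1 to 5 and −1.57, −1.54, −1.45, −1.56 and −1.56 in BN. Every BN array was above every CTL array, by 0.15 on average (exact sign-flip test over pairs, 2-sided, p = 0.0625, the smallest that 5 pairs can give). Over these genes the median difference between BN and CTL was 0.08 at the most 5′ feature and −0.04 at the feature nearest the 3′ end. The index ran from −1.63 to −1.5 in BP, from −1.58 to −1.49 in DBN, and from −1.76 to −1.46 in parental BN against −1.69 to −1.45 in parental CTL. The part of this index in the higher calls was not tested.

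**Figure D2:**
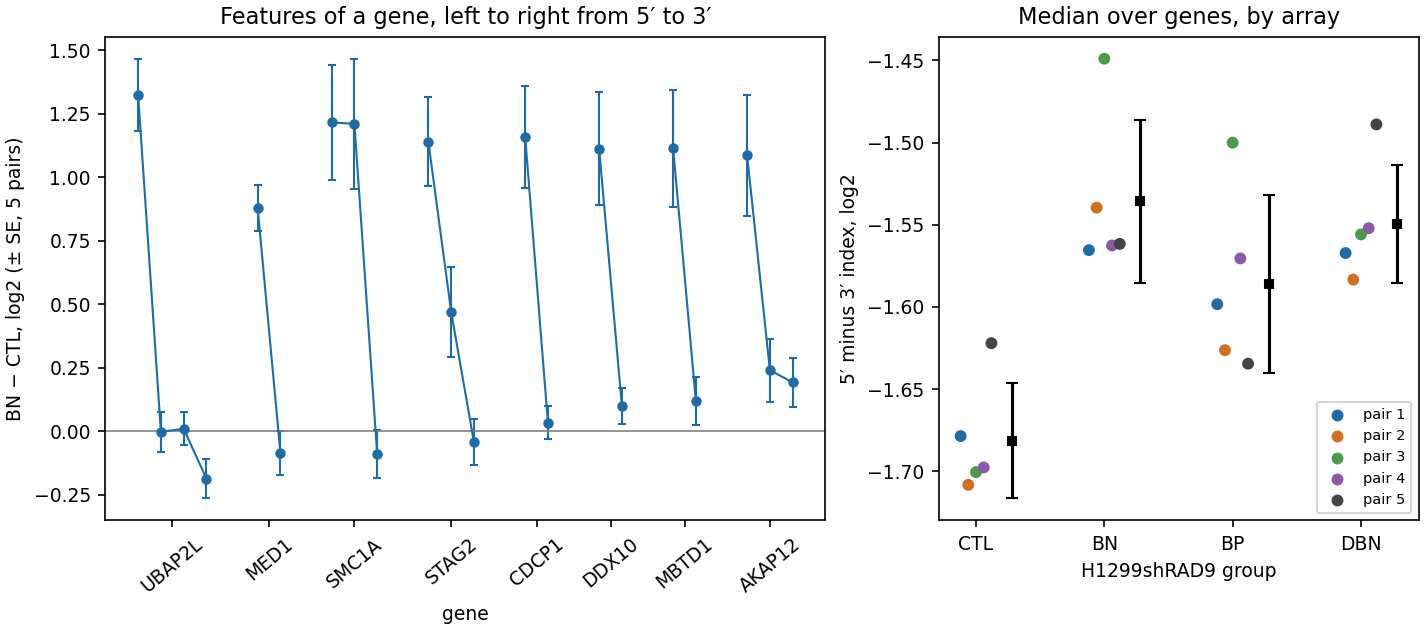
Left, difference between BN and CTL (log2 ± SE, 5 pairs) at each feature of 8 genes, ordered from 5′ to 3′; the most 5′ feature of UBAP2L stands at 1.32 and its last at −0.19. Right, the 5′ minus 3′ index of each H1299shRAD9 array, coloured by pair, with group mean ± SD (n = 5); BN arrays lie from −1.57 to −1.45 and CTL arrays from −1.71 to −1.62.

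Gene groups were described by the brightest tested feature of each member and set beside all features tested, whose median difference between BN and CTL was −0.02, with 45.9% above 0, 8.55% higher in all 5 pairs and 6.59% lower in all 5. No list was tested as a list.

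Among 37 immediate early genes tested, 1 (EGR1) passed in the 10-array fit, 20 were above 0 and the median was 0.02. FOS, the partner of JUN in AP-1, had levels of 0.19, −0.16, 1.02, 1.1 and 0.74 in CTL and of 1.08, 0.55, 1.65, 1.4 and 1.29 in BN. Its difference was 0.61 (SE 0.11), higher in 5 of 5 pairs, yet it missed the false discovery rate (limma adjusted p = 0.175). ATF3, a stress-induced repressor, differed by 0.76 (SE 0.18, adjusted p = 0.175) and FOSB by 0.41 (SE 0.09, adjusted p = 0.175), both higher in every pair. Among other members IER2 differed by −0.02 (SE 0.10), CYR61 by −0.05 (SE 0.12) and JUN by −0.03 (SE 0.13), while DUSP1, a phosphatase of MAP kinases, was at −0.27 (SE 0.12) and NR4A1 at 0.07 (SE 0.29).

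The inhibitors of DNA binding ID2 and ID1 were lower in BN in all 5 pairs. ID2 fell by 0.52 in the fit of all groups (adjusted p = 0.0943, against 0.231 in the 10-array fit), and ID1 differed by −0.37 (SE 0.12, adjusted p = 0.257). In parental BN cells ID2 differed by −0.66 (SE 0.16), lower in 5 of 5 pairs, and ID1 by −0.32 (SE 0.17), lower in 3 of 5.

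Of 37 integrated stress response genes, 33 were above 0 and 10 were higher in all 5 pairs, with a median of 0.20, but none passed in the 10-array fit. In the fit of all groups CARS and LARS, the cysteine and leucine tRNA synthetases, rose by 0.48 (adjusted p = 0.0783) and 0.70 (adjusted p = 0.0496). SLC38A2 and VEGFA rose in that fit at a feature other than their brightest tested one. CHAC1, which degrades glutathione, had levels of 2.25, 2.16, 3.05, 2.90 and 2.74 in CTL and of 3.22, 2.46, 3.61, 3.73 and 5.38 in BN. BN replicate 5 stood far above the others, and the difference of 1.06 (SE 0.31) had an adjusted p of 0.226. DDIT3 (0.51, SE 0.18), TRIB3 (0.37, SE 0.12) and ASNS (0.33, SE 0.14), a proapoptotic factor, a pseudokinase and asparagine synthetase, were higher in every pair without passing (adjusted p from 0.251 to 0.361), and ATF4 itself was at 0.08. The median over the list was 0.25, 0.00, 0.17, 0.02 and 0.62 in pairs 1 to 5, pairs 2 and 4 being close to 0. Against the CTL arrays of its line, the list had a median of 0.22 in BP, 0.23 in DBN and 0.12 in parental BN.

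Of 18 oxidative stress genes of the NRF2 group, 15 were above 0 and 5 were higher in all 5 pairs, with a median of 0.20 and none past the false discovery rate. HMOX1, heme oxygenase 1, had levels of 4.57, 4.21, 5.78, 5.83 and 5.49 in CTL and of 5.05, 5.23, 6.72, 6.32 and 7.22 in BN. As for EGR1, replicates 1 and 2 were the lowest in both groups. The difference was 0.93 (SE 0.19, 1.91-fold, adjusted p = 0.175). TXNRD1 (0.38, SE 0.10) and SRXN1 (0.37, SE 0.10), enzymes that reduce oxidised thioredoxin and peroxiredoxin, were also higher in all 5 pairs with unadjusted p under 0.006. Of the brightest members, MT2A (saturated on 2 arrays) was at 0.10, FTH1 at −0.04 and PRDX1 at −0.04. The median of the list against CTL was 0.22 in BP, 0.17 in DBN and 0.14 in parental BN.

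**Figure D3:**
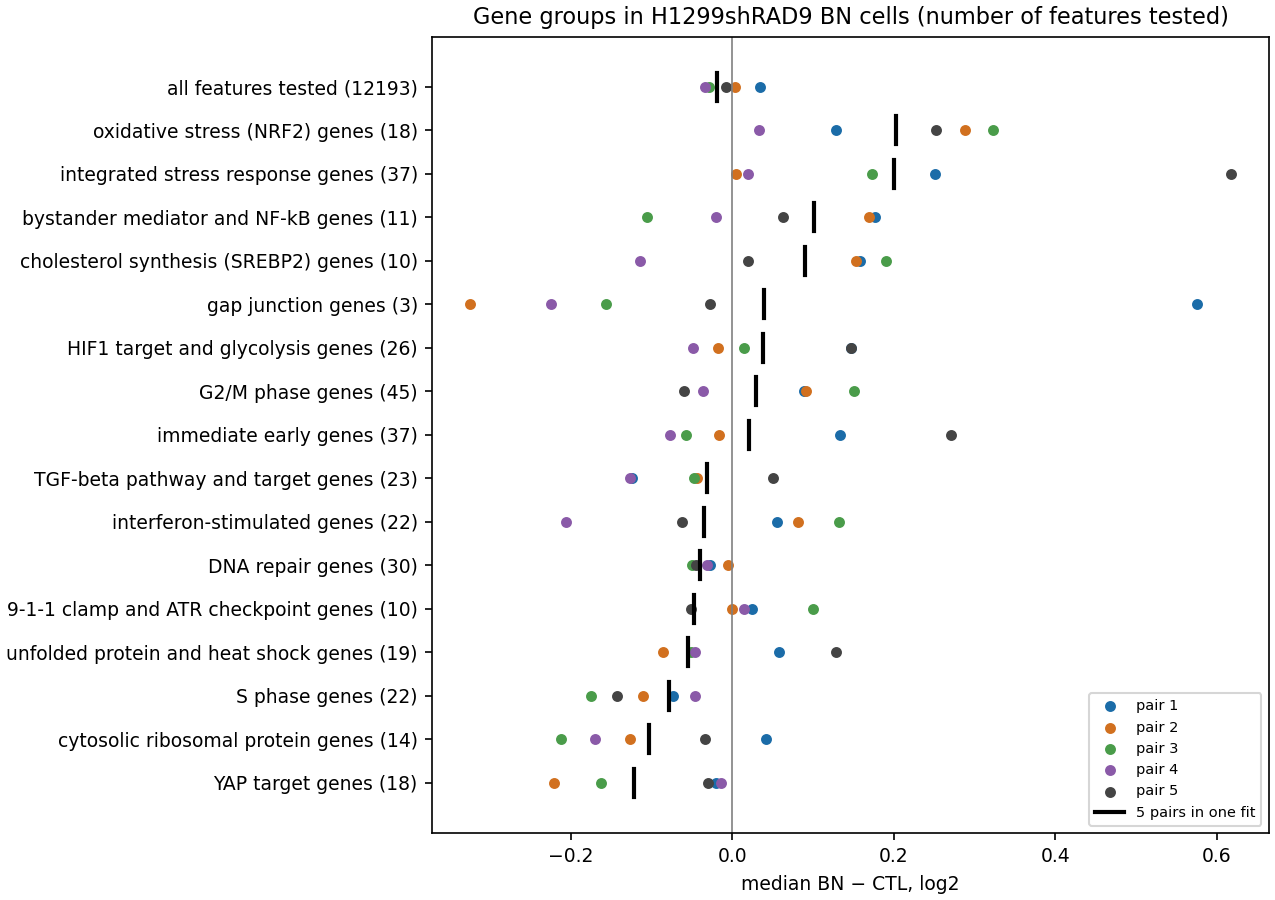
Median difference between BN and CTL (log2) over each gene group, with the number of features tested in brackets; points are the 5 matched pairs and bars the medians from the fit of all 5 pairs. The integrated stress response and NRF2 groups stand at 0.20, all features tested at −0.02 and YAP targets at −0.12.

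Of 30 mediator and NF-kB genes of bystander signalling on the array 16 passed the background criterion. PTGS2 (cyclooxygenase 2) was well above background on 0 of 5 CTL and 2 of 5 BN arrays, IL8 on none of the 10 and IL6 on 1. After the variation filter 11 could be tested and none passed, with NFKBIA at −0.23 and RELB at 0.13. SOD2, which missed that filter, was at 0.03. Of 13 gap junction genes 3 could be tested and none passed, and the connexin GJC1 was at 0.04. Among 23 TGF-beta genes tested, BAMBI, a decoy receptor, fell by 0.48 in the fit of all groups (adjusted p = 0.0631, against 0.175 in the 10-array fit), and TGFBR3 was at 0.47 (SE 0.11, adjusted p = 0.176). TGFB1 was at −0.02 and SMAD3 at −0.31.

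None of 10 tested clamp and ATR checkpoint genes passed in either fit, with a median of −0.05. Of genes that respond to DNA damage, CDKN1A was at 0.35 (SE 0.20), GADD45A at 0.23 (SE 0.09) and MDM2 at −0.29 (SE 0.10). Of 30 DNA repair genes, PARP1 passed in the fit of all groups (0.87, adjusted p = 0.0286), at the most 5′ of its 2 features. FANCC rose in that fit at a feature other than its brightest tested one.

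Of 22 S phase genes tested 17 were below 0, 4 were lower in all 5 pairs and none passed, with a median of −0.08. Bright members were thymidylate synthase (TYMS, −0.29, short of the variation filter), CDC45 (−0.22) and NASP (−0.18). Of 14 tested ribosomal protein genes 12 were below 0 (median −0.10) and none passed. Of these 14 features 4 were saturated on at least 1 array, and the brightest ribosomal features, those of RPS2, RPS10 and RPL13, were saturated on 10, 10 and 6 of the 10 arrays, so that no difference is given for them. Interferon-stimulated genes had 9 of 22 above 0, with IRF9 falling by 0.39 in the fit of all groups (adjusted p = 0.0577). Among the unfolded protein and heat shock genes, CANX rose by 0.55 in the fit of all groups (adjusted p = 0.0979), at the most 5′ of its 2 features, and HSPE1 was at −0.06 and CALR at −0.04. The brightest HSP90AA1 feature, the nearest to the 3′ end of 3 ordered ones, was saturated on 6 of the 10 arrays. In the fit of all groups 2 other HSP90AA1 features rose, by 0.56 (adjusted p = 0.0552) and 0.70 (adjusted p = 0.0666). In the hypoxia, cholesterol and YAP groups no brightest tested feature passed in either fit. Their medians were 0.04, 0.09 and −0.12, and MXI1, VEGFA, AMOTL1 and MYOF rose at another feature in the fit of all groups. Among their bright members were GAPDH (0.02), PGK1 (0.06), PKM2 (−0.42), FDPS (0.07), EBP (−0.01), AXL (−0.12), NT5E (−0.07), VEGFA (0.40) and CTGF (0.13).

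**Figure D4:**
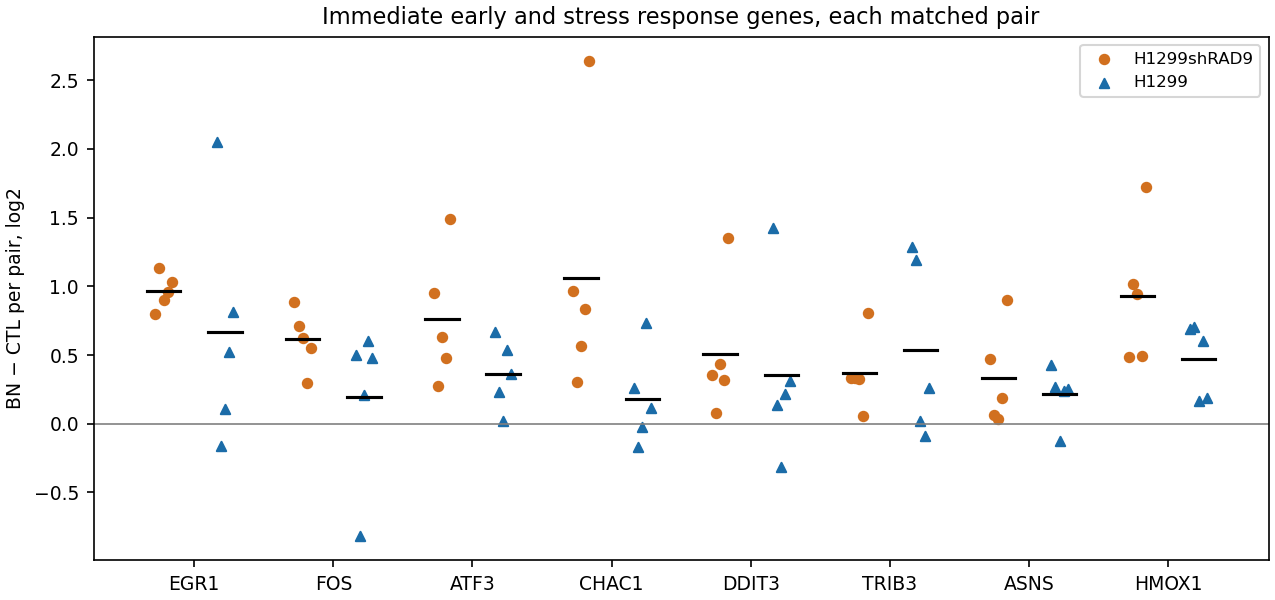
Difference between BN and CTL (log2) in each of the 5 matched pairs for 8 immediate early and stress response genes, in H1299shRAD9 (circles) and parental H1299 (triangles), with bars at the means. EGR1 lies between 0.80 and 1.13 in the H1299shRAD9 pairs, and CHAC1 reaches 2.64 in 1 of them.

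BN cells were set directly against the irradiated DBN cells of the same dish type, to ask where unhit and hit cells differed. Hit cells grew on the thin film and unhit cells on the thick film, so the hit and the film cannot be told apart. Of 12193 features 17 differed (0.139%, limma with the replicate block), each of them lower in DBN than in BN. Most encode proteins of mitosis: the Aurora A kinase AURKA and its activator BORA, the chromosomal passenger subunit CDCA8, the centromere proteins CENPA and HJURP, the spindle proteins PSRC1, FAM83D, CKAP2 and TROAP, cyclin F (CCNF), CDCA2 and the helicase PIF1. The other 5 were FAM110A, G2E3, LAG3, AURKAPS1 and A_33_P3404221. AURKAPS1 is a pseudogene copy of AURKA, and the signals of both cannot be told apart with certainty.

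PIF1 had levels of 3.74, 3.83, 4.01, 4.04 and 3.91 in BN and of 2.45, 2.33, 2.50, 3.0 and 2.36 in DBN, with CTL between 3.50 and 4.3. The BN arrays lay within the CTL range and every DBN array lay below it. DBN minus BN was −1.38 (SE 0.12, adjusted p = 0.00793). BORA had levels of 2.93, 2.87, 3.18, 3.0 and 2.96 in BN and of 1.42, 1.61, 2.06, 1.81 and 1.71 in DBN, a difference of −1.27 (SE 0.11, adjusted p = 0.00793). AURKA stood at 6.53, 6.25, 6.53, 6.39 and 6.34 in BN and at 5.13, 5.31, 5.75, 5.43 and 5.71 in DBN, a difference of −0.94 (SE 0.13, adjusted p = 0.062), and CCNF differed by −1.21 (SE 0.18, adjusted p = 0.0726).

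All 17 were lower in DBN in all 5 pairs, and for 16 of them the groups did not overlap, LAG3 being the exception. These features were picked by this same difference, so the one direction and the lack of overlap add no separate evidence. The shares over all features were not counted for DBN against BN. Between BN and CTL the same 17 features differed by −0.16 to 0.12, and the lowest adjusted p among them was 0.577. Of 45 G2/M phase genes tested, 11 were called lower in DBN than in BN, all of them among the 17. The list was written with earlier results of these data known, so this count adds no separate evidence either. The median difference of the 45 genes between DBN and BN was −0.47, against −0.02 over all features. Between BN and CTL the median of these 45 genes was 0.03, none passed in either fit, and PLK1 was at 0.01 (SE 0.10). In the fit of all groups 4 genes of the list rose at a feature other than their brightest one (ANP32E, MKI67, NEK2 and TMPO).

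FOS was 0.61 above CTL in BN and at −0.00 in DBN, and DBN minus BN was −0.62 (SE 0.17), short of the threshold (adjusted p = 0.779). EGR1 was 0.96 above CTL in BN, 0.84 in BP and 0.82 in DBN, 3 values that share the CTL arrays. DBN minus BN for EGR1 was −0.14 (SE 0.18).

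**Figure D5:**
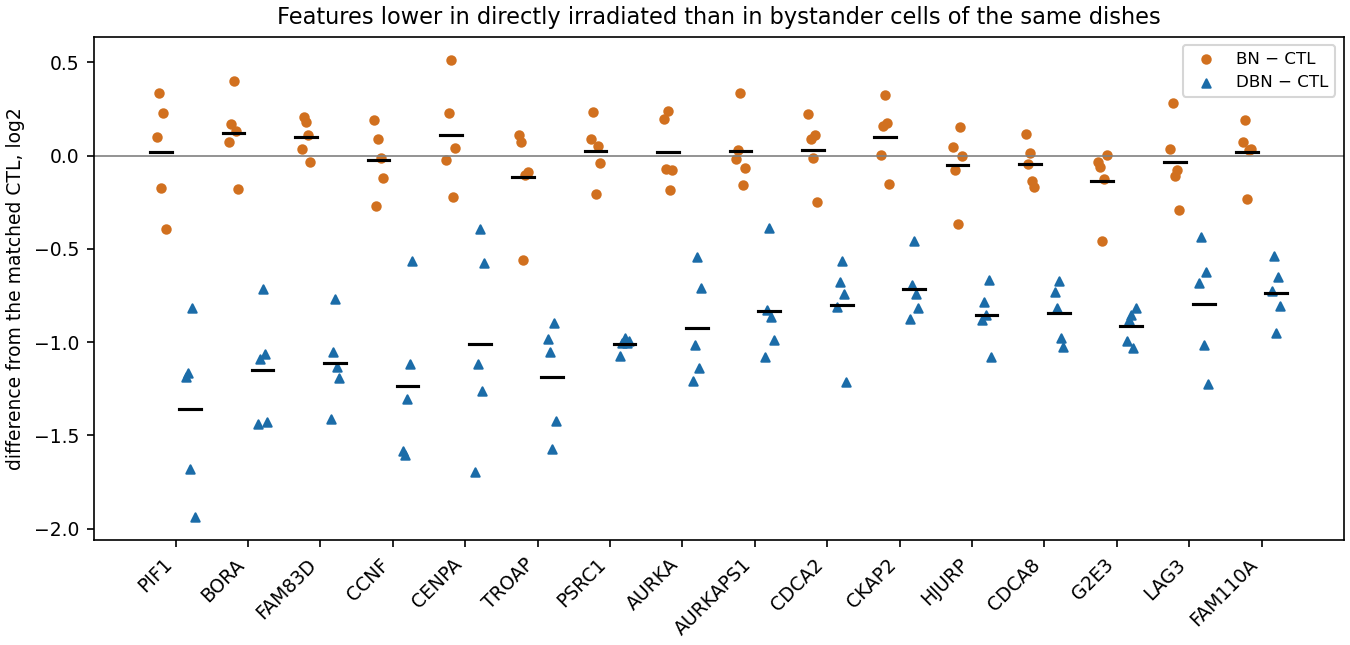
Difference from the matched CTL array (log2) in each of 5 pairs for 16 of the features that were lower in DBN than in BN cells (BN circles, DBN triangles, bars at the means). BN points scatter around 0, with means from −0.14 to 0.12, and the DBN points of PIF1, BORA and AURKA all lie below −0.5.

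BN cells were also set against bystander cells of dishes with a micronucleus response. No feature passed between BP and BN (0.0%, limma, 43 features at an unadjusted p under 0.05, 0 calls by the random-variance test), and with the replicate block the count was also 0. The median residual SD was 0.30 in the fit without the block, against 0.20 in the paired fit of BN and CTL. The lack of calls therefore does not show that BP and BN cells were alike. Among the 6 features of the BN comparison, BP minus BN was −0.12 for EGR1, −0.33 for LURAP1L, 0.11 for GDPD1, −0.70 for UBAP2L, −0.42 for MED1 and −0.01 for LOC100652917. Against the shared CTL arrays, CHAC1 was at 1.06 in BN and 1.18 in BP, HMOX1 at 0.93 and 1.07, and FOS at 0.61 and 0.52.

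The same comparison in parental H1299 cells, BN minus CTL over 5 pairs, gave no differentially expressed feature (0.0%, limma, 338 at an unadjusted p under 0.05). The difference between the cell lines was tested as an interaction and no feature passed (0.0%, 842 at an unadjusted p under 0.05, 0 calls by the random-variance test). EGR1 was at 0.67 in the parental line, higher in 4 of 5 pairs, and the interaction was 0.30 (SE 0.34). The UBAP2L feature was at −0.07, with an interaction of 1.4 (SE 0.25, limma adjusted p = 0.361). A_33_P3298612 was at 1.74 in the parental line, higher in 5 of 5 pairs, and at −1.56 in H1299shRAD9, lower in 5 of 5, with an interaction of −3.30 (SE 0.57, limma adjusted p = 0.361). LOC100652917 was at −0.27 there, with an interaction of −0.80 (SE 0.42). CHAC1 was at 0.18 (interaction 0.88, SE 0.38), HMOX1 at 0.47 (0.46, SE 0.24) and FOS at 0.20 (0.42, SE 0.25). HMOX1, ATF3 (0.36), FOSB (0.38), TXNRD1 (0.43) and SRXN1 (0.26) were higher in 5 of 5 parental pairs, and FOS in 4 of 5.

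Of the remaining genes set out for description, CDKN1C was at 0.31 (SE 0.12), NUPR1 at 0.21 (SE 0.23) and SOX4 at −1.51 (SE 0.64), the last well above background on 4 of 5 CTL and 3 of 5 BN arrays. SP1, a transcription factor bound to GC-rich promoters, fell short of the variation filter. Without that filter it was at −0.35 (SE 0.09, adjusted p = 0.22), lower in 5 of 5 pairs, and in the fit of all groups its adjusted p was 0.0577.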

How the data were processed

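The 50 arrays were Agilent 1-colour 4x44K arrays (200 ng RNA, Cy3). The authors deposited Feature Extraction scanner files (version 11.5.1.1, probe positions hg19), whose processed intensity is, per the file headers, background-subtracted. They also deposited a table of log2 values for a subset of features, used as an alternative. Per the study's methods values were background corrected, log2 transformed and median normalized. It held 9476 features matched here to probes, with column medians from 8.86 to 9.30, and correlated with log2 processed intensity at 0.999 or more on each array, so that genes were not centred.

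Here log2 processed intensity minus the array median of noncontrol spots was used, outlier spots were left out and spots of a probe averaged. A feature was left out if 25% or more of the 50 arrays lacked a spot well above background (20100 remained), or if fewer than 20% of arrays differed 1.3-fold from its median (12193 remained). Differences were fitted with limma 3.58.1 (R 4.3.3), with the replicate number as a block except for BP minus BN, which are different dishes. The fit of all groups also blocked BP and DBP by number, although BP and BN of one number correlated at 0.0154 to 0.622. Deviations from the group mean correlated at 0.208 to 0.693 for BN and CTL of one number (mean 0.486, against −0.118 for other numbers). Because deviations within a group sum to 0, the value for other numbers is tied to that for the same number. Of 5 BN arrays, 2 correlated best with the CTL array of their own number. The study's methods describe matched controls. Fits were tested on simulated data. The labels do not say that replicates were separate cultures, so p-values measure the spread between these samples. The number of arrays limits the precision. Single values were compared by exact sign-flip or permutation tests.

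The members and the gene lists were chosen with earlier results of these data known. Named are features called in the 10-array fit, the 10 largest rises and falls with unadjusted p under 0.006 and 1 direction in all 5 pairs, and, in each list, members called in either fit (at most 6) and the 3 brightest, besides a set of genes given whatever their values. Features called between DBN and BN, list members with unadjusted p under 0.006, and genes called at another feature were named after their values were seen. Symbols are those of the array, except LURAP1L for C9orf150. A few genes of the rule are not reported here. Promoters are from RefSeq (GRCh38.p14).

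Alternatives were: no variation filter, scaling to the 75th percentile, quantile normalization, normexp, 2 other detection rules, the random-variance test, the authors' values, the slide as a fixed or random block, no replicate block, each replicate left out, and, chosen after seeing the data, 1 feature nearest the 3′ end per gene and the fit of all groups without BP and DBP.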

Additional observations from a re-analysis of the deposited data

Results flagged for a closer look

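Each of 256 groups of 5 values was checked for a sample whose gap to its nearest neighbour exceeded 0.71 of the group's range, and 13 groups (5.08%) held one, where chance gives about 1 in 20. For features called or with large differences, BN replicate 2 stood at 3.17 for CDCP1 (next 2.0), BN replicate 3 at −2.03 for A_33_P3304097 (next −1.17), CTL replicate 3 at 2.29 for KRTAP5-10 (next 0.92) and CTL replicate 2 at 2.88 for ID2 (next 2.34). BN replicate 3 was also apart for SMAD3 (4.07, next 4.50), TYMS (8.65, next 8.90), CDKN1A (−1.12, next −1.82) and MDM2 (2.02, next 2.42), and for the 5′ minus 3′ index (−1.45, next −1.54). BN replicate 5 was apart for H2AFX (7.87, next 8.21). Among controls, replicate 5 was apart for SMAD3 (4.63, next 4.80) and for the percent of probes well above background (65.3, next 60.3), and replicate 4 for TJP1 (4.98, next 4.70).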

How the results depend on the processing

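The 6 calls between BN and CTL became 0 with normexp, 0 with the positive-and-significant detection rule, 3 with the authors' values, 0 with the slide as a block and 0 to 0 with 1 replicate left out, and became 520 in the fit of all groups. The 520 became 343 with the authors' values, 16 with the slide as a block, 229 with it as a random block, 364 without the BP and DBP arrays, 56 with 1 feature nearest the 3′ end per gene, and 0 to 680 with 1 replicate left out (0 without replicate 2, 93 without 3, 5 without 4). The 17 calls between DBN and BN became 3 with the positive-and-significant rule, 11 when detection was asked of 4 of 5 arrays of either group, 7 with the slide as a block and 3 to 7 with 1 replicate left out. Without the replicate block the counts were 0, 68 and 9. BP minus BN and the interaction gave 0 under every alternative run. With normexp the median interaction over all features was 0.60. The cause of these changes was not tested.

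All 6 called features kept their direction under every alternative that measured them. Values near background, such as LURAP1L (0.47 to 1.52) and GDPD1 (0.35 to 0.86), ranged more widely than EGR1 (0.91 to 1.01). Their calls were less stable than their directions. EGR1 and LOC100652917 kept the call in 9 of 18 alternatives each, GDPD1 in 8 of 18 and LURAP1L in 7 of 18. UBAP2L kept it in 8 of 17 and MED1 in 6 of 16. Over named features, 1322 results kept their side of the threshold, which includes features that stayed uncalled. In 58 results a call was lost, all among the 6 called features, 18 gained one and 0 reversed.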
